A study of Mus musculus with 6 samples.

Results

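The 49 genes described here encode proteins of the large (60S) subunit of the cytosolic ribosome in the mouse. They were listed by name, matched through their Ensembl identifiers to GENCODE release M21, and found among 51826 genes with counts. The list holds the Rpl and Rplp genes with their paralogs Rpl10l, Rpl22l1, Rpl36al and Rpl39l, and its members were selected on the lower values seen in the knockout samples. The knockout against wild-type contrast of these genes is therefore a description, given without a test, and supports nothing by itself.

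RNA was measured in testes of 8-week-old C57BL/6J mice, in 3 wild-type samples and 3 KIFC1 knockout samples. KIFC1 is a kinesin motor that moves towards microtubule minus ends, and the series asks how its loss bears on meiosis and male fertility. The labels give the genotype as a knockout and name no deleted exon, promoter or Cre line. Whether the 3 samples of a genotype were 3 animals is not stated, so p-values cover only the spread among these samples, and that spread may be technical.

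The large subunit carries the site where amino acids are joined, the tunnel through which the new chain leaves, and the stalk that recruits the translation GTPases. Most ribosomal protein mRNAs begin with a terminal oligopyrimidine tract (TOP), a cytosine followed by further pyrimidines, through which mTORC1 and LARP1 control their translation and stability. During male meiosis the X chromosome is silenced, and retrotransposed or duplicated autosomal copies of X-linked ribosomal protein genes are expressed in germ cells.

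Kifc1 (ENSMUSG00000079553, chr17:33875659-33890661, minus strand, mm10) served as the check of the labels. It stood at 15.5, 16.1 and 14.7 counts per 1000000 counts (CPM) in the wild-type samples and at 0.326, 0.736 and 0.281 CPM in the knockout samples. Its log2 fold change, knockout over wild type, was -5.09 (SE 0.35; adjusted p = 0.00378, edgeR's quasi-likelihood test over all genes). All 3 knockout samples were therefore far below all 3 wild-type samples.

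The libraries held from 29274603 to 38703606 counts, and the smallest count of a large subunit gene in any library was 138. Some libraries stood apart from the rest of their group. The mitochondrial share of counts ran from 0.661% to 0.935% in wild type and was 5.74%, 1.54% and 4.29% in knockout samples 1, 2 and 3. Across 12751 genes, the correlation of a gene's relative level with GC content (Spearman's rho) ran from 0.244 to 0.526 in wild type and was -0.265, -0.667 and -0.120 in knockout. Wild-type sample 1 had the strongest trend with exon length, at a rho of -0.392. GC trend and mitochondrial share both differed between the genotypes. Within knockout they ran apart, since sample 2 had the strongest GC trend and the lowest mitochondrial share. The part of GC trend and mitochondrial share in the results below was not tested.

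Most of the 49 large subunit genes lay lower in the knockout testes. The fitted log2 fold change was below 0 for 44 of them, against 50.7% of all 21518 genes tested, and above 0 for 5. The median over the 49 genes was -0.56, against -0.01 over all genes tested. In 7 genes the value was -1 or lower, in 23 it lay between -1 and -0.5, and in 6 it was within 0.1 of 0. Bulk values cannot tell fewer cells of a type from less RNA per cell.

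In edgeR's quasi-likelihood test across all genes, 9 of the 49 passed an adjusted p of 0.05 as lower, where 5.12% of all genes did. As higher, 0 passed, where 3.11% did. At an unadjusted p under 0.05 in that test, 25 of the 49 were lower, where 15% of all genes were, and 0 higher, where 12.1% were. DESeq2's Wald test called 17 lower and 0 higher, where 4.98% and 4.24% of genes were. The edgeR shares are over 21518 genes, and the DESeq2 shares over 34675, without edgeR's filter on low counts. DESeq2's default filter can leave genes of low count without an adjusted p. Such genes were counted as not called, which lowers the DESeq2 shares. Genes called in either direction by edgeR's test made up 8.23% of the 21518. The 9 were Rplp2, Rpl36, Rpl13, Rpl34, Rpl8, Rplp1, Rpl15, Rpl18 and Rplp0. In 17 genes, or 34.7%, every knockout sample was below every wild-type sample, as in 18.1% of all genes tested, and in 0 every knockout sample was above, as in 14.6%. The groups overlapped in the other 32. Because this contrast chose the genes, nothing is read from these counts.

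**Figure D1:**
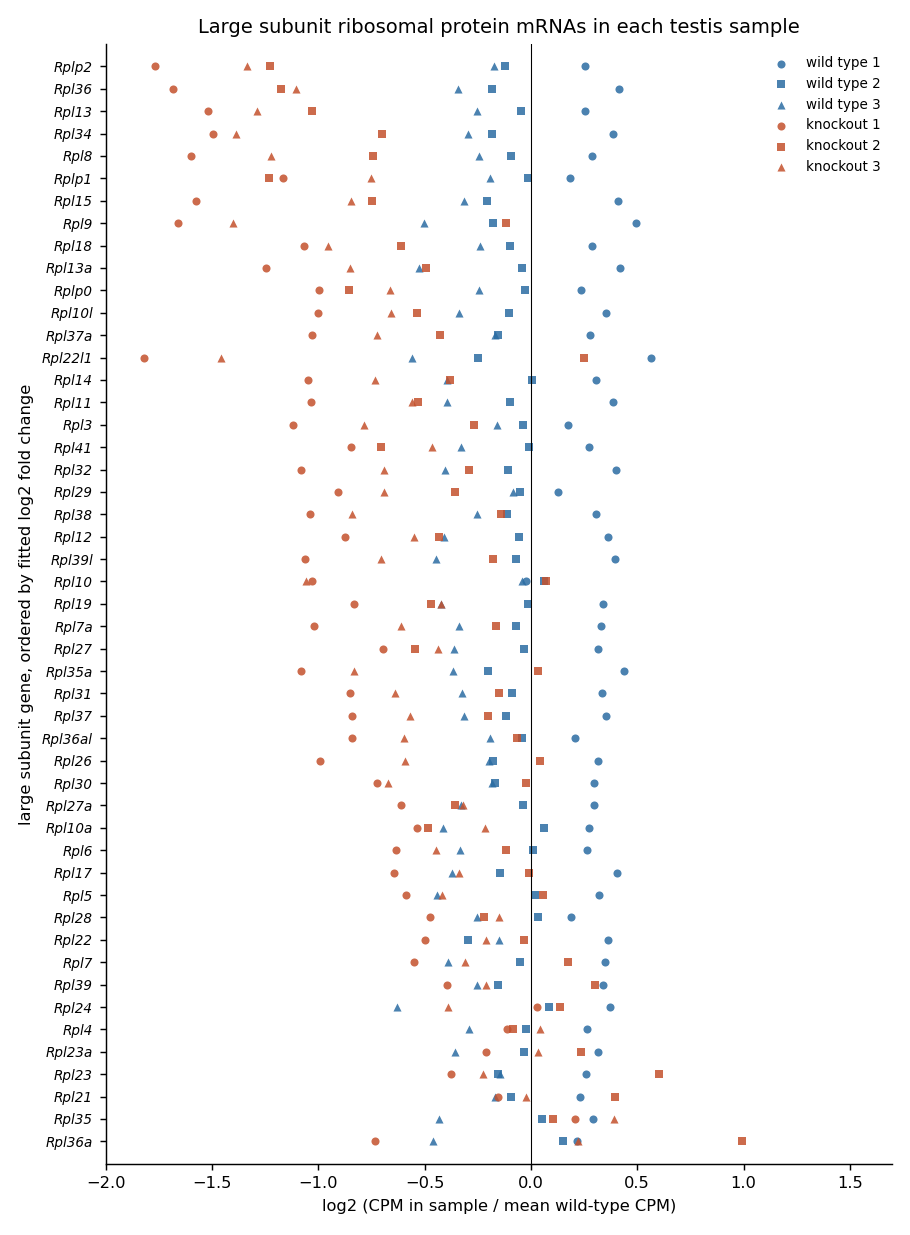
Level of each of the 49 large subunit genes in each testis sample, as the log2 ratio of CPM to the gene's mean wild-type CPM (x axis), with genes ordered by fitted log2 fold change (y axis). Blue points are wild type and red points knockout, with circles, squares and triangles for samples 1, 2 and 3. Red points lie left of the blue ones in 17 genes toward the top of the plot, and the knockout square lies right of the other red points in most rows.

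By role in the subunit, the stalk genes had the lowest median of 4 groups. Rplp0 builds the base of the stalk on the subunit, Rplp1 and Rplp2 form the acidic dimers that bind elongation factors, and Rpl12 sits beside Rplp0 at the base. All 4 had every knockout sample below every wild-type sample, as 18.1% of all genes did, with log2 fold changes from -1.43 to -0.61 and a median of -0.93. The role groups were formed with these values known, and nothing is read from their order.

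Rplp2 (ENSMUSG00000025508, chr7:141447370-141451585, plus strand) had the lowest fold change of the 49 genes. It stood at 211, 163 and 157 CPM in the wild-type samples and at 51.9, 75.5 and 70.1 CPM in the knockout samples, so that every knockout sample was below every wild-type sample. The means were 177 ± 29.6 and 65.9 ± 12.4 CPM (SD, n = 3 each), a log2 fold change of -1.43 (SE 0.19).

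Rplp1 (ENSMUSG00000007892, chr9:61913284-61914542, minus strand) stood at 454, 395 and 349 CPM in the wild-type samples and at 178, 169.7 and 237 CPM in the knockout samples (log2 fold change -1.03, SE 0.18). Here knockout sample 3 was the highest of the 3 knockout samples. Rplp0 (ENSMUSG00000067274, chr5:115559467-115563727, plus strand) stood at 1172, 977 and 840.2 CPM in the wild-type samples and at 499.9, 551 and 629 CPM in the knockout samples (log2 fold change -0.83, SE 0.17). Its samples did not overlap either.

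At the peptidyl transferase centre, the site of peptide bond formation, the genes were Rpl3, Rpl8, Rpl10 and its paralog Rpl10l. Their median log2 fold change was -0.70, with values from -1.14 to -0.57, and every knockout sample was below every wild-type sample in 3 of the 4, against 18.1% of all genes. Rpl8 (ENSMUSG00000003970, chr15:76904078-76906314, plus strand), which encodes the uL2 protein next to the catalytic rRNA, stood at 468, 359 and 324 CPM in the wild-type samples and at 127, 229.6 and 165 CPM in the knockout samples (log2 fold change -1.14, SE 0.24). Knockout sample 2 was the highest of the knockout samples and stayed below wild-type sample 3.

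Rpl5 and Rpl11 bind the 5S rRNA and, when free of the ribosome, inhibit the p53 ligase MDM2. Rpl11 (ENSMUSG00000059291, chr4:136028265-136053428, minus strand) stood at 279, 199.9 and 163 CPM in the wild-type samples and at 105, 148 and 145 CPM in the knockout samples (log2 fold change -0.69, SE 0.22). Rpl5 (ENSMUSG00000058558, chr5:107900502-107909005, plus strand) stood at 179, 145 and 105 CPM in the wild-type samples and at 95.2, 149 and 107 CPM in the knockout samples (log2 fold change -0.29, SE 0.23). The samples did not overlap for Rpl11 and overlapped for Rpl5. The difference between these partner genes was not tested. Rpl5 overlaps the tested gene Fam69a, so its level is uncertain.

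The genes around the exit tunnel were nearer to 0. This group of 11 (Rpl4, Rpl17, Rpl19, Rpl22, Rpl22l1, Rpl23a, Rpl26, Rpl31, Rpl35, Rpl39 and Rpl39l) was put together after values were seen. Its median log2 fold change was -0.31, from -0.71 to 0.24, the samples overlapped in all 11, and 0 passed the threshold, of which nothing is read. Rpl35 (ENSMUSG00000062997, chr2:39001580-39005624, minus strand), which lies at the rim of the tunnel, stood at 221, 187 and 134 CPM in the wild-type samples and at 209, 194 and 236 CPM in the knockout samples (log2 fold change 0.24, SE 0.19). Rpl35 overlaps the tested genes Arpc5l and Wdr38, and its level is uncertain.

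Among the remaining genes, Rpl36, Rpl13, Rpl34, Rpl15 and Rpl9 had the lowest fold changes. Rpl36 (ENSMUSG00000057863, chr17:56613416-56614243, plus strand) stood at 409.9, 272 and 243 CPM in the wild-type samples and at 96.1, 136 and 143 CPM in the knockout samples (log2 fold change -1.30, SE 0.24). Rpl13 (ENSMUSG00000000740, chr8:123102350-123105244, plus strand) stood at 480.2, 389 and 338 CPM in the wild-type samples and at 140.3, 197 and 165 CPM in the knockout samples (log2 fold change -1.27, SE 0.19). For both genes the highest knockout sample was below the lowest wild-type sample.

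Rpl34 (ENSMUSG00000062006, chr3:130726831-130730398, minus strand) stood at 92.4, 62.4 and 57.6 CPM in the wild-type samples and at 25.1, 43.6 and 27.0 CPM in the knockout samples (log2 fold change -1.15, SE 0.26). Rpl15 (ENSMUSG00000012405, chr14:18267823-18271391, minus strand), which overlaps the tested gene Nkiras1 and is uncertain for that reason, stood at 216, 141 and 131 CPM in the wild-type samples and at 54.6, 96.9 and 90.6 CPM in the knockout samples (log2 fold change -1.01, SE 0.26). Rpl9 (ENSMUSG00000047215, chr5:65388364-65391444, minus strand) stood at 201, 126 and 101 CPM in the wild-type samples and at 45.1, 132 and 54.1 CPM in the knockout samples (log2 fold change -0.89, SE 0.41). Rpl34 and Rpl15 did not overlap between the groups, whereas knockout sample 2 of Rpl9 lay above wild-type samples 2 and 3.

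At the other end, Rpl36a, Rpl35, Rpl21 and Rpl23 had the highest fold changes. Rpl21 (ENSMUSG00000041453, chr5:146832890-146837032, plus strand) stood at 194, 155 and 147 CPM in the wild-type samples and at 149, 217 and 162 CPM in the knockout samples (log2 fold change 0.09, SE 0.19). Rpl23 (ENSMUSG00000071415, chr11:97777527-97782437, minus strand) stood at 136, 102 and 103 CPM in the wild-type samples and at 87.6, 173 and 97.01 CPM in the knockout samples (log2 fold change 0.07, SE 0.26). In both genes knockout sample 2 held the highest value of all 6 samples and the groups overlapped. Rpl4, Rpl23a and Rpl24 were also within 0.1 of 0, at log2 fold changes of -0.05, 0.03 and -0.06.

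The 49 genes moved together between the samples of 1 group as well. Their summed share of all counts was 1.17%, 0.947% and 0.821% in wild-type samples 1, 2 and 3 and 0.514%, 0.826% and 0.599% in knockout samples 1, 2 and 3. The means were 0.979% ± 0.176 and 0.646% ± 0.162 (SD, n = 3 each), and knockout sample 2 lay just above wild-type sample 3. Wild-type sample 1 was the highest of its group for 48 of the 49 genes and wild-type sample 3 the lowest for 47. Knockout sample 2 was the highest of its group for 38 genes and knockout sample 1 the lowest for 45. The share of all genes that rank the samples in this way was not counted. The 49 genes are short, with a median exon length of 1770 bases against 3239 for all genes tested. Across 12751 genes with a mean log2 CPM above 2, the trend with exon length had a rho of -0.392 in wild-type sample 1 and 0.295 in knockout sample 1. The part of this trend in the shared movement was not tested.

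**Figure D2:**
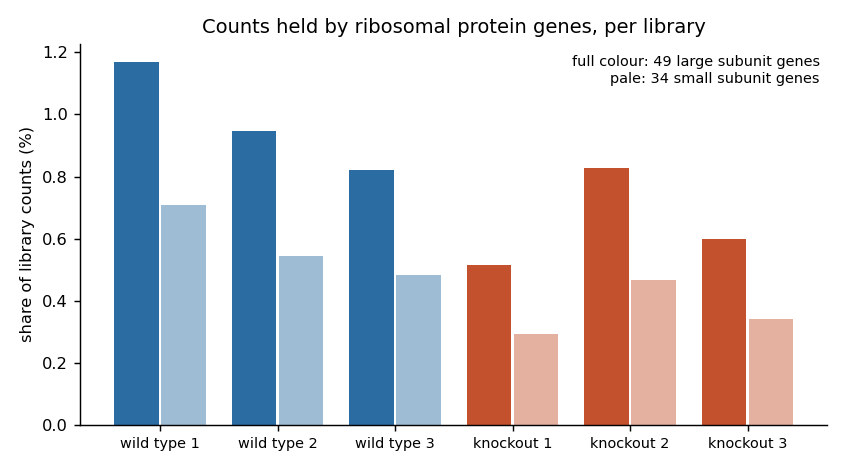
Share of each library's counts (y axis, %) held by the 49 large subunit genes (full colour) and by the 34 small subunit genes (pale), for each of the 6 samples (x axis; blue wild type, red knockout). The large subunit bars run from 0.821% to 1.17% in wild type and from 0.514% to 0.826% in knockout, and within each genotype both subunits rank the samples alike.

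The count of genes past the threshold changed when single libraries were left out, which also leaves fewer samples to test. The part of the smaller number of samples was not tested. Without wild-type sample 1 the count was 0 of 49, where 0.0135% of all genes passed as lower, and the median log2 fold change was -0.33. It was also 0 without wild-type sample 2, where 0.00452% of all genes passed, and without knockout sample 1, where 0.00454% passed. At an unadjusted p under 0.05 these 3 fits had 14, 20 and 15 of the 49 genes lower, where 11.5%, 10.8% and 10.7% of all genes were. The count was 5 without wild-type sample 3, where 1.44% passed, and 3 without knockout sample 3, where 1.09% passed. Without knockout sample 2 it was 23 of 49, where 7.69% passed, and the median was -0.78. Without wild-type sample 1 and knockout sample 2 together, an alternative chosen after seeing the data, it was 24 of 49, where 7.46% passed, and the median was -0.57.

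Removing each library's dependence on GC content and on exon length from the fit also moved the values. The median log2 fold change of the 49 genes became -0.36, with 43 below 0, against 49% of all genes tested below 0 in that fit. Of the 49 genes, 0 then passed the threshold, where 0.0883% of all genes passed as lower (20 were lower at an unadjusted p under 0.05, where 10.7% of all genes were). The stalk genes Rplp2 and Rplp1 stood at log2 fold changes of -1.09 and -0.61 in that fit, Rpl36 at -0.72, Rpl13 at -1.07 and Rpl15 at -1.16. Rpl35 stood at 0.65. The transcripts of the 49 genes had a median GC content of 51.1%, from 39.1% to 60.8%, against 49.04% for all genes tested. Across the 49 genes, which share libraries, the log2 fold change had a Spearman's rho of -0.44 with GC content, and of 0.17 once the trends were removed.

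**Figure D3:**
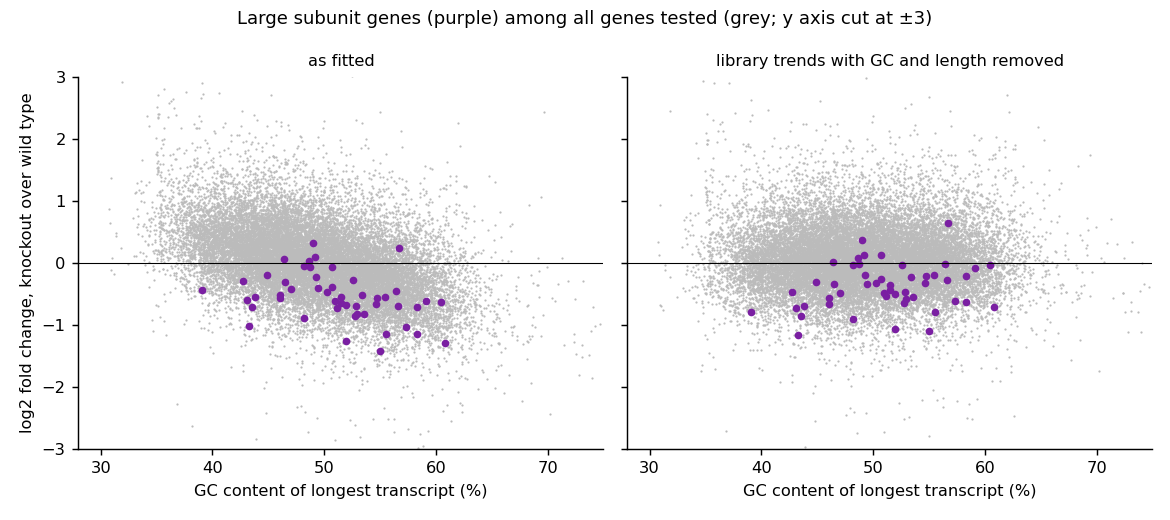
Log2 fold change, knockout over wild type (y axis), against the GC content of the longest transcript (x axis, %), as fitted (left) and with the GC and length trends of each library removed (right). Grey points are all genes tested and purple points the 49 large subunit genes, whose median is -0.56 on the left and -0.36 on the right.

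Levels of different genes were compared per length, as transcripts per 1000000 (TPM) computed from counts and the length of merged exons. In wild type the highest were Rplp1 at 2062 ± 125 TPM, Rpl36 at 2057 ± 441 TPM and Rplp0 at 1545 ± 148 TPM (SD, n = 3 each). Rplp1 and Rpl36 did not differ beyond their spread. The median of the 49 genes was 209 TPM. With the principal transcript as the length, the highest was Rpl41 at 1836 ± 248 TPM, so the order at the top depended on the length used.

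The lowest levels in wild type belonged to Rpl36a at 9.67 ± 1.86 TPM, Rpl39 at 20.9 ± 3.25 TPM and Rpl10 at 24.3 ± 1.94 TPM. These are the 3 X-linked genes among the 49, and the neighbours Rpl39 and Rpl10 did not differ beyond their spread. By the principal transcript the lowest were Rpl36a at 24.8 ± 4.74 TPM, the autosomal Rpl22 at 32.4 ± 5.92 TPM, Rpl39 at 36.6 ± 5.62 TPM and Rpl10 at 43.6 ± 3.54 TPM. Exact copies limit 2 of these levels, because reads that match several genes may be lost or split. Of the 100-base windows of the transcripts, 84.4% for Rpl10 and 83.6% for Rpl36a also occurred in annotated transcripts of other genes, against 1.75% for Rpl39.

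Each X-linked gene has an autosomal paralog in the list, and per length the copy was the more abundant partner in every sample, by merged exons and by the principal transcript. The pair Rpl39 and Rpl39l was the least touched by copies and is shown by its coding sequences, taken from the GENCODE M21 transcripts and written 5′ to 3′ with the differing bases in capitals.
Rpl39: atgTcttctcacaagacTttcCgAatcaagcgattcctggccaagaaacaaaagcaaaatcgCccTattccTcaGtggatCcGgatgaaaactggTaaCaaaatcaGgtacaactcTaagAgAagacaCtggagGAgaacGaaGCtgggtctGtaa
Rpl39l: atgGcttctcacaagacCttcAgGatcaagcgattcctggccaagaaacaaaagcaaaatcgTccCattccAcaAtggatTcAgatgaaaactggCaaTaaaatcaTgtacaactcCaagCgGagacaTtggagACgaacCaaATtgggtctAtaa
Both are 156 bases long and 23 bases differ, an identity of 85.3%. Of 51 codons, 21 differ and 3 of these encode another residue.

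Rpl39l (ENSMUSG00000039209, chr16:10170226-10174911, plus strand) encodes a tunnel-wall protein found in testis ribosomes. It stood at 329, 239 and 184 CPM in the wild-type samples and at 119.8, 221 and 154 CPM in the knockout samples (log2 fold change -0.60, SE 0.27), and its X-linked partner Rpl39 (ENSMUSG00000079641, chrX:37082520-37085402, minus strand) at 14.8, 10.5 and 9.82 CPM in the wild-type samples and at 8.90, 14.4 and 10.1 CPM in the knockout samples (log2 fold change -0.07, SE 0.25). Both genes overlapped between the groups. In TPM by the principal transcript, the ratio of Rpl39l to Rpl39 was 16.9, 17.3 and 14.2 in wild type and 10.2, 11.7 and 11.6 in knockout. This ratio, which was not tested, was lower in every knockout sample than in every wild-type sample. By merged exons the mean ratios were 36.6 ± 3.78 and 25.3 ± 1.83 (SD, n = 3 each).

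Rpl10l replaces Rpl10 in spermatocytes and is needed for male meiosis in mice. Rpl10l (ENSMUSG00000060499, chr12:66283379-66284401, minus strand) stood at 255, 186 and 158 CPM in the wild-type samples and at 99.8, 138 and 127 CPM in the knockout samples (log2 fold change -0.72, SE 0.21), without overlap. Rpl10 (ENSMUSG00000008682, chrX:74270812-74273135, plus strand) stood at 19.0, 20.1 and 18.7 CPM in the wild-type samples and at 9.42, 20.2 and 9.25 CPM in the knockout samples (log2 fold change -0.57, SE 0.30), where knockout sample 2 was at the wild-type level. The ratio of Rpl10l to Rpl10 by the principal transcript was 8.69 ± 2.24 in wild type and 8.66 ± 2.88 in knockout (by merged exons 20.9 ± 5.37 and 20.8 ± 6.91). Their coding sequences, of 645 bases each, share 84.8% of bases and differ in 3 encoded residues.

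Rpl36al (ENSMUSG00000049751, chr12:69182731-69184083, minus strand) stood at 87.9, 74.0 and 66.5 CPM in the wild-type samples and at 42.5, 72.8 and 50.3 CPM in the knockout samples (log2 fold change -0.46, SE 0.22). Rpl36a (ENSMUSG00000079435, chrX:134585654-134588062, plus strand) stood at 7.25, 6.92 and 4.53 CPM in the wild-type samples and at 3.75, 12.4 and 7.25 CPM in the knockout samples (log2 fold change 0.32, SE 0.40), the highest fold change of the 49 genes. The ratio of the copy to Rpl36a was 11.5 ± 1.85 in wild type and 7.40 ± 2.66 in knockout by the principal transcript. The groups overlapped for both genes and for the ratio, and the coding sequences, 87.9% identical, encode the same residues.

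The autosomal pair Rpl22 and Rpl22l1, whose proteins bind RNA on and off the ribosome, was closer in level. Rpl22 (ENSMUSG00000028936, chr4:152325742-152334071, plus strand) stood at 44.6, 28.2 and 31.3 CPM in the wild-type samples and at 24.6, 33.9 and 30.01 CPM in the knockout samples (log2 fold change -0.23, SE 0.21). Rpl22l1 (ENSMUSG00000039221, chr3:28805436-28807424, plus strand) stood at 33.4, 19.0 and 15.3 CPM in the wild-type samples and at 6.41, 26.9 and 8.22 CPM in the knockout samples (log2 fold change -0.71, SE 0.52), with knockout sample 2 above wild-type samples 2 and 3. The ratio of Rpl22l1 to Rpl22 in wild type was 2.37 ± 0.494 by the principal transcript and 0.933 ± 0.194 by merged exons, so which partner is the more abundant depends on the length used.

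**Figure D4:**
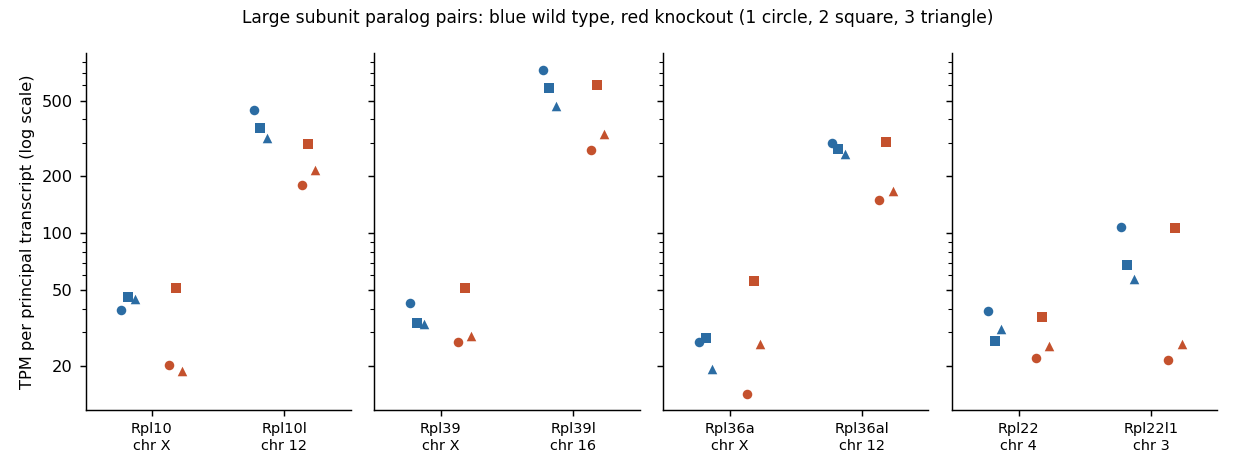
TPM by the principal transcript (y axis, log scale) of each parent gene and its paralog (x axis, with chromosomes) in each sample, blue for wild type and red for knockout, with circles, squares and triangles for samples 1, 2 and 3. The copies of the X-linked genes stand above their parents in every sample, by 8.69-fold, 16.1-fold and 11.5-fold on average in wild type for Rpl10l, Rpl39l and Rpl36al.

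Sequence around the start of transcription was examined for the TOP tract, which most ribosomal protein mRNAs carry. RefSeq promoters (GRCm38.p6) matched 38 of the 49 genes, without Rpl3, Rpl7, Rpl8, Rpl17, Rpl21, Rpl23a, Rpl29, Rpl30, Rpl32, Rpl36 and Rplp1. The windows below are 30 bases on the strand of the gene, 5′ to 3′, with the pyrimidine tract in capitals, for genes with low fold changes (Rplp2, Rpl13, Rpl15), a gene near or above 0 (Rpl35), the germ-cell copy Rpl39l and a gene without a tract (Rplp0).
Rplp2, chr7:141447637-141447666, plus strand: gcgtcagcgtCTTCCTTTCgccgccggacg
Rpl13, chr8:123102324-123102353, plus strand: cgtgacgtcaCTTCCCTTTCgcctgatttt
Rpl15, chr14:18270967-18270996, minus strand: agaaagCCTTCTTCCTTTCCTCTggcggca
Rpl35, chr2:39005115-39005144, minus strand: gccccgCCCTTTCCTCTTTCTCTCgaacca
Rpl39l, chr16:10170192-10170221, plus strand: acacccactgCCTCTCCCTagctcccaggc
Rplp0, chr5:115559452-115559481, plus strand: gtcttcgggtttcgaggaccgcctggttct
The tracts of Rplp2, Rpl15 and Rpl35 span the annotated start, which their first base precedes by 4, 4 and 7 bases. Those of Rpl13 and Rpl39l, of 10 and 9 bases, begin 16 and 26 bases before it and end upstream of it, outside the annotated mRNA. A run of C and at least 7 further pyrimidines on the sense strand within 50 bases of an annotated start was found in 34 of the 38 genes, or 89.5%, against 31.7% of 14348 tested genes with a promoter. On the opposite strand, which serves as the comparison, it was found in 31.6% of the 38 and in 35.1% of the tested genes. The 4 genes without a tract in this window were Rpl10l, Rpl23, Rpl24 and Rplp0.

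Of 3 further motifs searched on both strands over the 300 bases of each promoter, CCGGAAG, the core bound by ETS factors, occurred in 15 of the 38 genes, or 39.5%, against 15.9% of tested genes. The YY1 core AAGATGGC occurred in 3, or 7.89%, against 4.26%, and the TATA box TATAAA in 5, or 13.2%, against 9.97%. These motifs were chosen with the sequences in view, and a match is a description of letters. A start site that the annotation places a few bases off moves a tract in or out of the window.

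The large subunit genes are also hosts of small nucleolar RNA genes, which lie in their introns and guide rRNA modification. Of the 49 genes, 19, or 38.8%, hold 38 such genes, against 1.46% of 16278 tested protein-coding genes. Rpl4 holds 5 and Rpl13a holds 4. The median log2 fold change was -0.44 in the 19 hosts and -0.63 in the other 30 genes.

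Many transcripts of this family share sequence with other annotated genes. Over the 49 genes, the median share of 100-base windows found exactly in annotated transcripts of other genes was 39.8%, with 310 other genes involved, and it reached 91.1% in Rpl5. The other genes include processed pseudogenes and also overlapping genes, such as Fam69a for Rpl5 and Sphk2 for Rpl18, so the share does not count processed copies alone. In 23 genes at least 50% of the windows had such a match, with a median log2 fold change of -0.56, against -0.61 in the other 26. Rpl10l, Rpl22, Rpl32 and Rpl39l had no such window. The share was 87.0% in Rpl9, 78.9% in Rpl13 and 55.3% in Rpl36, so their levels are uncertain. It was 17.2% in Rplp2 and 1.73% in Rpl8. Another tested gene overlapped 13 of the 49, Rpl12 and Rpl18 among them, and their levels are uncertain for that reason.

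Genes of the same machinery were read from lists chosen with earlier results of these data known. Of 34 genes of the small (40S) subunit, which decodes mRNA, 10 fell, 0 rose and 24 did not pass, where 5.12% of all genes fell (edgeR). At an unadjusted p under 0.05 in edgeR's test, 23 were lower and 0 higher, where 15% and 12.1% of all genes were. With DESeq2's Wald test 16 were lower and 0 higher, where 4.98% and 4.24% of 34675 genes were, shares lowered by genes without an adjusted p. The median log2 fold change of the 34 was -0.72, and the value was below 0 for 30 of them. Rps29 fell from 253 ± 27.97 to 79.7 ± 12.4 CPM, a log2 fold change of -1.67 (SE 0.17; adjusted p = 0.0127, edgeR) and Rps20 from 313 ± 58.3 to 133 ± 18.04 CPM, a log2 fold change of -1.24 (SE 0.18; adjusted p = 0.0161, edgeR). Rps4l, an autosomal copy of an X-linked gene as Rpl10l is, fell from 183 ± 30.4 to 112 ± 19.5 CPM, a log2 fold change of -0.70 (adjusted p = 0.0483, edgeR). Its parent Rps4x stood at 26.9 ± 1.99 and 27.5 ± 7.92 CPM (log2 fold change 0.03; adjusted p = 0.938, edgeR).

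Calls in these lists changed when single libraries were left out, as did calls over all genes. The 6 lists held 28 calls in all, where 1770 of 21518 genes were called. Without wild-type sample 1, wild-type sample 2 or knockout sample 1 they held 0. In those fits 5 of 22167, 1 of 22148 and 1 of 22046 genes were called. The lists held 13 calls without wild-type sample 3, 6 without knockout sample 3 and 47 without knockout sample 2, where 425, 327 and 3149 of all genes were called. With the GC and length trends removed they held 3, where 27 of all genes were called. Those 3 were small subunit genes, Rps29 and Rps20 among them, so no call in the other 5 lists held in that fit. Called genes whose log2 fold change moved there by more than 1.5 times included Rps4l (-0.19; adjusted p = 0.484, edgeR), Eef2 (-0.40; adjusted p = 0.194) and Taf1c (-0.48; adjusted p = 0.197). Mlst8 (-0.37; adjusted p = 0.236) and Mrpl54 (-0.62; adjusted p = 0.0945) were others, and these are not all of them. Rps4l and Mlst8 also missed the threshold with DESeq2 size factors and without a filter on low counts, and Mlst8 with library size alone.

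Among 17 translation factors whose mRNAs carry TOP tracts, 3 fell and 0 rose, where 5.12% and 3.11% of all genes did (6 lower and 2 higher at an unadjusted p under 0.05, 3 and 1 by DESeq2; the shares of all genes by these rules are as for the small subunit, here and in the lists that follow), with a median log2 fold change of -0.24. Among those that fell were Rack1, a scaffold on the small subunit (-1.08; adjusted p = 0.0166, edgeR), and Eef2, the translocase that binds the stalk (-0.78; adjusted p = 0.0222, edgeR). Eef1a1, with a TOP mRNA of its own, stood at a log2 fold change of -0.11 (adjusted p = 0.743), and Pabpc1 at 0.79 (adjusted p = 0.0651).

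The factors that assemble the large subunit had a median near 0. Of 49 assembly factors, 6 (12.2%) fell, where 5.12% of all genes did. Another 1 rose, where 3.11% did (Mak16, log2 fold change 0.68, named after its value was seen). The median of the 49 was -0.04. At an unadjusted p under 0.05, 9 were lower and 6 higher, and by DESeq2 7 and 2. Eif6, which keeps the new large subunit from joining the small one, fell from 51.5 ± 9.62 to 19.9 ± 4.35 CPM, a log2 fold change of -1.37 (SE 0.21; adjusted p = 0.0161, edgeR). Wdr18 of the complex that remodels the pre-60S particle fell from 91.8 ± 10.4 to 43.4 ± 6.78 CPM, a log2 fold change of -1.08 (adjusted p = 0.0161, edgeR). Sbds, which helps release Eif6, stood at 0.25 (adjusted p = 0.421).

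Of 21 genes of RNA polymerase I and the nucleolus, 1 (4.76%) fell and 0 rose, where 5.12% and 3.11% of all genes did. At an unadjusted p under 0.05, 2 were lower and 6 higher, and by DESeq2 2 and 4. The median log2 fold change of the 21 was -0.01. The gene that fell was Taf1c, a subunit of the promoter selectivity factor (-1.04; adjusted p = 0.0194, edgeR), and Npm1, a nucleolar chaperone, stood at 0.54 (adjusted p = 0.0539). Of 15 genes of the mTORC1 and LARP1 axis, 1 (6.67%) fell and 0 rose, where 5.12% and 3.11% of all genes did. At an unadjusted p under 0.05, 3 were lower and 2 higher, and by DESeq2 1 and 1. The median of the 15 was -0.20. Mlst8, an mTOR partner, was the 1 that fell (-0.66; adjusted p = 0.0412), while Eif4ebp1 stood at -0.62 (adjusted p = 0.0911), Larp1 at 0.21 (adjusted p = 0.421) and Mtor at -0.36 (adjusted p = 0.112).

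The large subunit of the mitochondrial ribosome served as a set of proteins of like function made for another organelle. Of 49 Mrpl genes, 6 (12.2%) fell and 0 rose, where 5.12% and 3.11% of all genes did. At an unadjusted p under 0.05, 13 were lower and 1 higher, and by DESeq2 9 and 1. The median log2 fold change of the 49 Mrpl genes was -0.32. Mrpl52 and Mrpl54 had the smallest p, at log2 fold changes of -1.18 (adjusted p = 0.0161, edgeR) and -1.19 (adjusted p = 0.0186). With the GC and length trends removed, the medians were -0.52 for the small subunit, -0.19 for Mrpl, -0.15 for the translation factors and -0.36 for the 49 genes of the cytosolic large subunit. In the same fit they were -0.16 for the mTORC1 and LARP1 axis, -0.055 for RNA polymerase I and the nucleolus, and 0.001 for the assembly factors. The median over all genes tested was 0.01 there.

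**Figure D5:**
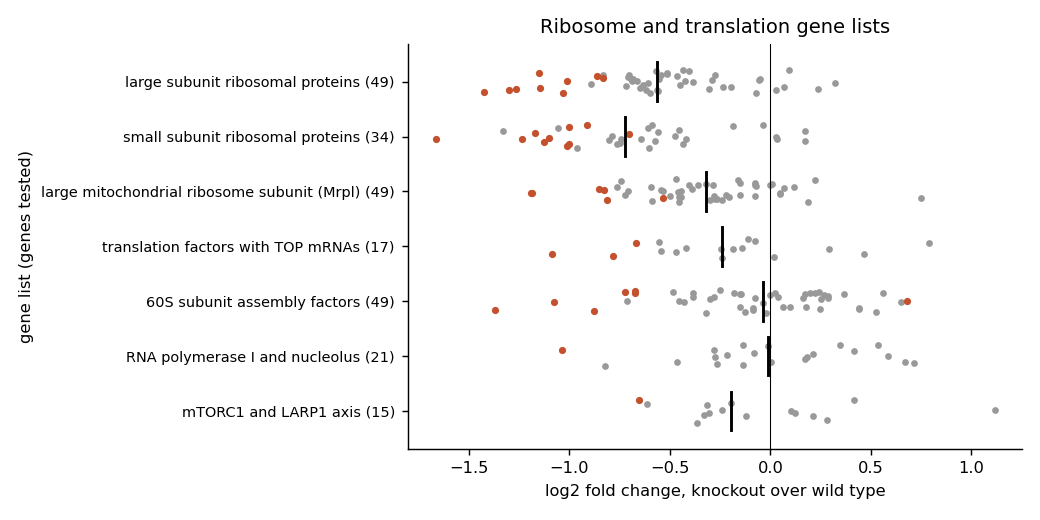
Log2 fold change, knockout over wild type (x axis), of each tested gene in 7 lists of ribosome and translation genes (y axis, with the number tested). Red points passed an adjusted p of 0.05, grey points did not, and black bars are medians, which run from -0.72 for the small subunit to -0.01 for RNA polymerase I and the nucleolus.

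Markers of testis cell types were read as summed CPM. All 8 spermatid markers were present, with sums from 15538 to 17543 CPM in wild type and from 10082 to 11765 CPM in knockout, and 3 of the 8 fell, where 5.12% of all genes did, without overlap of the sums. Those of 8 spermatocyte markers ran from 998 to 1083 CPM in wild type and from 976 to 1021 CPM in knockout, and those of 8 spermatogonial markers from 86.6 to 109 CPM and from 91.3 to 105 CPM. Sums of 8 Sertoli cell markers ran from 716 to 1041 CPM in wild type and from 1013 to 1594 CPM in knockout, and those of 6 Leydig cell markers from 597 to 1298 CPM and from 972 to 1507 CPM. The spermatid sums were lower in every knockout sample than in every wild-type sample. The same held for 17 of the 49 large subunit genes, against 18.1% of all genes tested, and the groups overlapped in the other 32. The part of cell composition in the large subunit values was not tested.

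Sums of the other lists overlapped between the groups. No marker of the lists other than the epididymal one was at 0 in every sample. They ran from 90.0 to 167 CPM in wild type and from 121 to 186 CPM in knockout for 5 peritubular myoid markers, from 41.4 to 77.2 and from 56.8 to 73.3 CPM for 6 macrophage markers, and from 25.5 to 51.8 and from 39.6 to 48.7 CPM for 5 endothelial markers. The 4 erythroid markers summed to between 52.6 and 96.8 CPM in wild type and between 31.9 and 53.2 CPM in knockout. Besides the spermatid markers, 1 spermatogonial, 1 spermatocyte and 1 erythroid marker fell, and 1 spermatocyte and 1 Sertoli cell marker rose. Of 5 epididymal markers, 3 had 0 counts in every sample, and the sums stayed from 2.76 to 4.02 CPM in wild type and from 1.66 to 3.68 CPM in knockout.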

How the data were processed

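Testis RNA of 3 wild-type and 3 KIFC1 knockout samples was sequenced. The files deposited by the authors hold raw counts per gene as whole numbers, 1 file per sample, with 51826 genes and 0 rows that name no gene. Trimmomatic, HISAT2, HTSeq and the build mm10 are named in the submitters' processing notes. The sources used here give neither an annotation release nor the strand setting, nor how reads with several matches were counted, so reads of overlapping genes, antisense partners and near-identical copies cannot be told apart. Symbols, coordinates and lengths came from GENCODE M21, which matched 51633 identifiers.

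With library totals between 29274603 and 38703606 counts, 3 counts come to at most 0.102 CPM, a floor for counting error only. Replicates differed by more than sampling noise (chi-square over degrees of freedom, 15.4 to 135). Counts were tested with edgeR 4.0.16 (R 4.3.3; quasi-likelihood test, TMM, filterByExpr, 21518 genes, two-sided, Benjamini-Hochberg adjusted p under 0.05) on all 6 samples without covariates. SE is the absolute log2 fold change over the root of F, and CPM are TMM-scaled. The principal transcript was chosen by APPRIS, then CCDS, support level and length. Copies were sought among annotated transcripts, since no genome was used here.

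The members, the lists and the tests were chosen with earlier results of these data known. Named in full by rule were Kifc1, the paralog pairs, Rplp0 to Rplp2, Rpl5, Rpl11, the 8 lowest and 4 highest fold changes, and the 3 highest and 3 lowest TPM in wild type, then in other lists the 2 smallest p and up to 2 examples. Tried as alternatives were DESeq2 1.42.0 size factors and its Wald test, library size alone, other filters on low counts, a replicate block, offsets for GC content and exon length (5-df splines on 12751 genes with mean log2 CPM above 2), leaving out mitochondrial genes or samples, and other lengths and windows. Single values of 1 gene among the translation factors are not reported here.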

Additional observations from a re-analysis of the deposited data

How the results depend on the processing

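The median log2 fold change of the 49 large subunit genes stayed below 0 under all 16 alternatives, and 39 of the genes had a value below 0 under each. Counts of calls were less stable. In all, 1770 genes passed the threshold, with 9 of the large subunit and 28 of the other ribosome and translation lists. The counts fell to 1010 genes and 16 of the other lists without a filter on low counts, where more genes were tested. The DESeq2 Wald test gave 3196, 17 and 47. Offsets for GC content and length gave 27, 0 and 3. Leaving out wild-type sample 1 and knockout sample 2 together, an alternative added after seeing the data, gave 3295, 24 and 45. Where single samples were left out, the counts ran from 1 to 3149 genes, from 0 to 23 of the large subunit and from 0 to 47 of the other lists. The lowest came without wild-type sample 1, wild-type sample 2 or knockout sample 1 and the highest without knockout sample 2. The cause of these changes was not tested, and a group left with 2 samples has a spread estimated with the other group.

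Replicate numbers are shared by the groups in the labels, but same-numbered samples did not deviate together (correlations of deviations of -0.473, -0.120 and -0.140 over 12761 genes). Differently numbered samples had correlations from -0.192 to 0.421, the highest for wild-type sample 3 and knockout sample 1. Such correlations cannot show which samples were handled together, so a pairing is neither shown nor excluded. With the replicate block, 21 genes passed the threshold, 0 of the large subunit and 1 of the other lists. With the replicate block and the offsets these were 7, 0 and 0. The median TPM of the 49 genes in wild type was 209 by merged exons, 324 by the longest transcript and 354 by the principal transcript, the last added after seeing the data. With 50-base windows the median share found in other transcripts was 57.4%.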
